A study of Homo sapiens with 12 samples.

Results

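The human sirtuin family consists of 7 genes, SIRT1 to SIRT7, which were picked by name from the 58735 genes of the expression table. RNA was sequenced from the lines KGN and COV434, as 12 libraries in 4 groups of 3. The authors describe KGN as from an adult-type and COV434 as from a juvenile-type granulosa cell tumor. In each line, cells titled control, called untreated here, were set against cells given the SIRT3 inhibitor 77-39. The titles do not say whether control cells were given a vehicle. The treated samples bear a label of 72 h and 10 um/ml. That dose and time text also stands on the untreated samples, and the labels do not say that the 3 libraries of a group came from separate cultures, so p-values measure the spread between these libraries only. The question was which sirtuins the cells expressed, and whether the RNA of any other member rose when SIRT3 was inhibited.

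Sirtuins are enzymes that use NAD+ to remove acetyl and other acyl groups from lysines, and they release nicotinamide as they do so. SIRT1, SIRT6 and SIRT7 are mainly nuclear, SIRT2 is mainly cytosolic, and SIRT3, SIRT4 and SIRT5 reside in mitochondria. SIRT3 is the main deacetylase of mitochondrial proteins, and an inhibitor of the enzyme acts on the protein, so its RNA need not move.

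The values are FPKM, fragments counted on a gene relative to its length and to the library size, as the authors deposited them, and they allow genes to be compared per length. Each library held 15547851 to 18280415 reads on genes. Mitochondrially encoded genes took 7.3% to 8.81% of reads under the KGN label and 7.71% to 13.5% under the COV434 label, most in treated library 1 of COV434. The markers of the lines went against their names. FOXL2, the transcription factor of granulosa cells, averaged 0.00581 FPKM in untreated libraries under the KGN label and 12.4 FPKM under the COV434 label, and SMARCA2, a SWI/SNF ATPase whose loss is known for COV434, averaged 0.00773 and 5.65 FPKM. SMARCA4, the other SWI/SNF ATPase, averaged 2.58 and 9.22 FPKM in the same libraries. Of 9 granulosa markers, 2 reached a mean of 1 FPKM under the KGN label (sum 51.5 to 67.4 FPKM over the libraries, mostly WT1, with AMHR2 and FSHR listed at 0) and 3 under the COV434 label (sum 21.4 to 26.3 FPKM, with FSHR, NR5A1 and WT1 listed at 0). The summed level of EPCAM, PTPRC and PECAM1, markers of other cell types, was 0.188 to 0.402 FPKM and 0.0236 to 0.233 FPKM. The lines are therefore named by their labels throughout, and every statement on a line is about the libraries labelled so. In such bulk RNA, fewer cells of a kind and less RNA per cell cannot be told apart.

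The promoters of SIRT6 and SIRT1 are shown because SIRT6 differed most between the lines and SIRT1 had the smallest p of any sirtuin in COV434. Both are the 250 bases before the RefSeq start on GRCh38.p14, in the direction of the gene. Capitals mark 4 motifs searched on both strands, the E-box CACGTG, the GC box GGGCGG, the E2F site TTTCCCGC and the CCAAT box CCAAT.
SIRT6 (chr19:4182564-4182813, minus strand): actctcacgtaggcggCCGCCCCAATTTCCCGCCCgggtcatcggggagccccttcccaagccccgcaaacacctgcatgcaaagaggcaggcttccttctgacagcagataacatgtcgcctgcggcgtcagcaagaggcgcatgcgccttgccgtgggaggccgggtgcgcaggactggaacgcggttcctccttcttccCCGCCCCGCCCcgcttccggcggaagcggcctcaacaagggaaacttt
SIRT1 (chr10:67884406-67884655, plus strand): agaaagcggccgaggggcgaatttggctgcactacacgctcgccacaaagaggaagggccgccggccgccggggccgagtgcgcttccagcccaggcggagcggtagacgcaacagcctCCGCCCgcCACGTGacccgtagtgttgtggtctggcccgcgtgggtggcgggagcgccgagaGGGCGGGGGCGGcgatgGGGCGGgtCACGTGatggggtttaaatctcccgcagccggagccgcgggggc
SIRT6 held 4 GC boxes, 1 E2F site and 1 CCAAT box, and some of these letters are shared, since the CCAAT box and the E2F site overlap each other and a GC box on either side. SIRT1 held 4 GC boxes, of which a pair is contiguous, and 2 E-boxes. Of 35116 promoters of this length, 42.6% held a GC box, 32% a CCAAT box, 6.34% an E-box and 1.39% this E2F site. Of the 6 sirtuins with an entry, SIRT2 held 1 CCAAT box, SIRT5 held 1 GC box, and the windows of SIRT3 and SIRT4 held none of the 4 motifs. These matches are a description of letters in a window.

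The gene models are those of GENCODE 29 on GRCh38. SIRT3 (ENSG00000142082) lies on the minus strand of chromosome 11 from 215458 to 236931, and 316 of its 5202 exon bases also belong to exons of PSMD13, a proteasome subunit gene on the plus strand that starts 385 bases inside SIRT3. SIRT5 (chromosome 6, 13574529 to 13615158, plus strand) shares 1045 exon bases with the antisense gene AL441883.1, which was listed at 0 in the 12 libraries. SIRT7 (chromosome 17, 81911939 to 81921323, minus strand) shares 105 with MAFG on the same strand, and SIRT2 (chromosome 19, 38878555 to 38899862, minus strand) shares 40 with NFKBIB, so reads in these stretches cannot be assigned with certainty. SIRT4 (chromosome 12, 120302316 to 120313249, plus strand) shares 12 with a small RNA pseudogene. SIRT6 (chromosome 19, 4174109 to 4182604, minus strand) and SIRT1 (chromosome 10, 67884669 to 67918390, plus strand) share none.

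The 7 sirtuins were all detected in every library. SIRT1, SIRT2, SIRT3, SIRT5, SIRT6 and SIRT7 had 253 to 1491 reads per library, and SIRT4 had 10 to 36. At that depth, counting error alone gives SIRT4 a coefficient of variation of 31.6% at the lowest count and 16.7% at the highest, so its values are the least precise of the family. In untreated KGN libraries SIRT2 led with 12.4 ± 0.262 FPKM (SD, n = 3), followed by SIRT1 (7.56 ± 0.202), SIRT6 (6.76 ± 0.594), SIRT3 (4.29 ± 0.0675), SIRT5 (3.43 ± 0.167), SIRT7 (3.13 ± 0.360) and SIRT4 (1.51 ± 0.155). The ranges of SIRT1 and SIRT6 overlapped, as did those of SIRT5 and SIRT7, and the other neighbours in this order did not. In untreated COV434 libraries SIRT6 led with 14.2 ± 0.847 FPKM, followed by SIRT2 (9.95 ± 0.267), SIRT1 (7.79 ± 0.990), SIRT3 (3.82 ± 0.432), SIRT7 (3.56 ± 0.402), SIRT5 (3.56 ± 0.665) and SIRT4 (0.780 ± 0.255). SIRT3, SIRT7 and SIRT5 overlapped their neighbours there, and SIRT6, SIRT2, SIRT1 and SIRT4 stood clear of theirs. SIRT3 was thus the most abundant mitochondrial sirtuin per length in the untreated libraries by mean, and it ranked the fourth of the 7 in all groups. Its lead over SIRT5 rests on the gene lengths of 5202 and 6507 bases. In untreated COV434 libraries SIRT5 had more reads, 373, 472 and 321 against 319, 380 and 301 for SIRT3. The SIRT5 length includes the 1045 bases shared with an antisense gene, and the effect of these on the order was not tested.

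**Figure D1:**
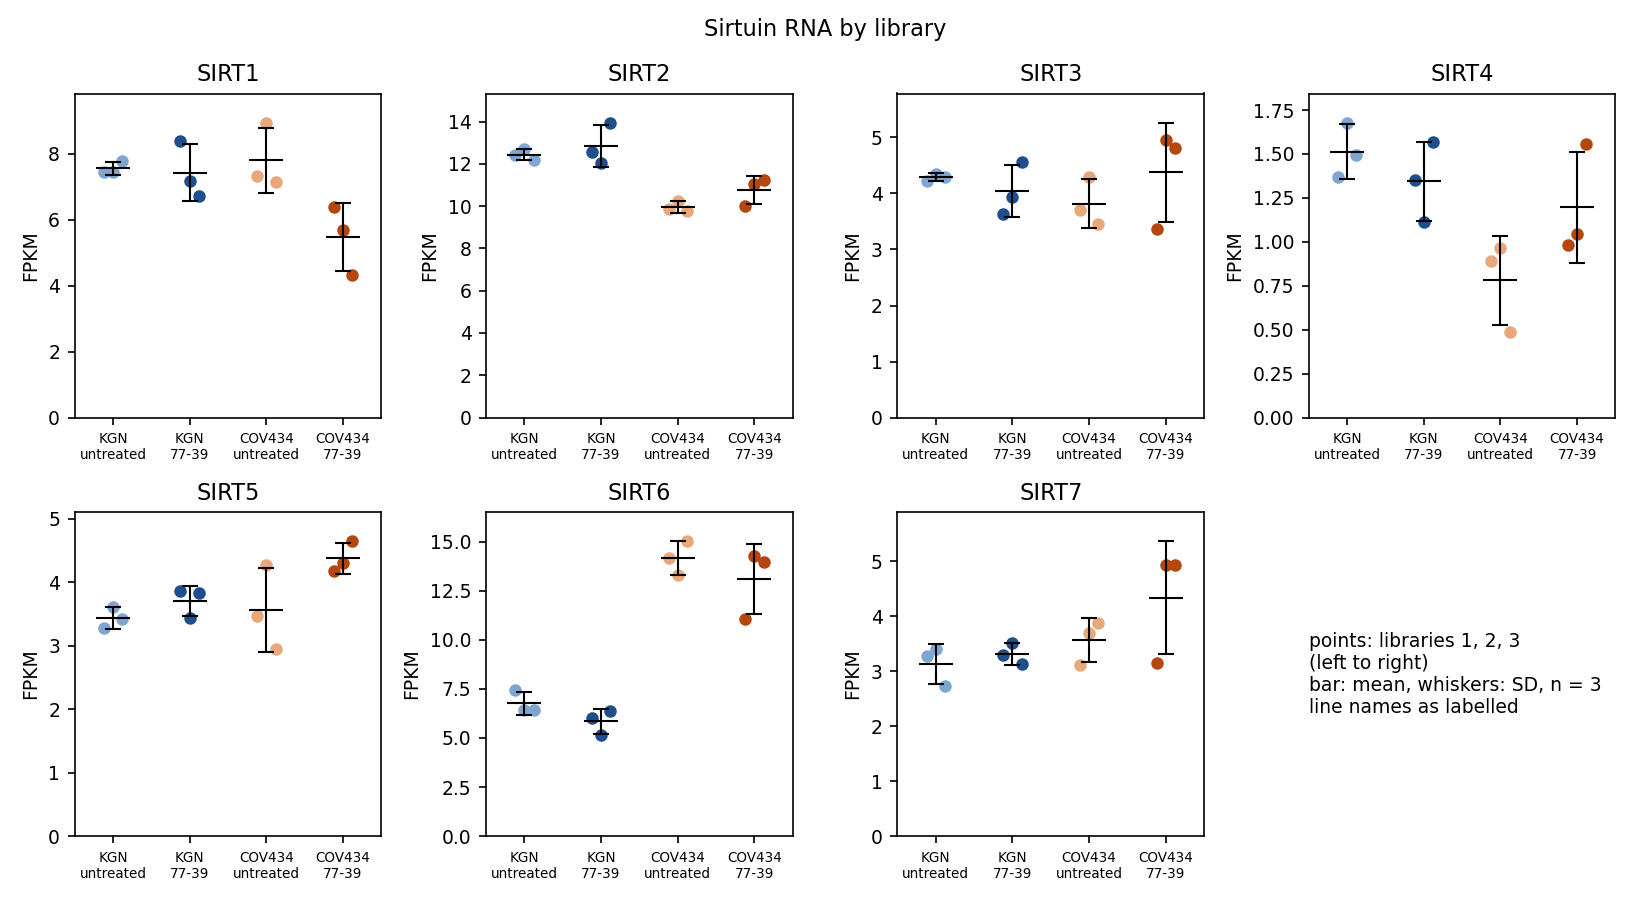
FPKM (y axis, from 0) of each sirtuin in the 3 libraries of each group, with points for libraries 1 to 3 from left to right, a bar for the mean and whiskers for the SD. SIRT6 averaged 6.76 FPKM in untreated KGN libraries and 14.2 FPKM in untreated COV434 libraries, whereas SIRT3 averaged 3.82 to 4.38 FPKM in all 4 groups.

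As shares of the summed sirtuin FPKM, SIRT2 made up 31.8%, SIRT6 17.3% and SIRT3 11% in untreated KGN libraries. In untreated COV434 libraries, SIRT6 made up 32.5%, SIRT2 22.8% and SIRT3 8.74%. After 77-39, SIRT3 made up 10.5% in KGN and 9.97% in COV434 libraries, and SIRT1 made up 19.3% in KGN both before and after, but 17.8% before and 12.7% after in COV434. The nuclear members summed to 17.5 ± 0.642 FPKM in untreated KGN libraries and 25.5 ± 0.808 FPKM in untreated COV434 libraries, and the mitochondrial members to 9.24 ± 0.388 and 8.16 ± 1.32 FPKM.

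**Figure D2:**
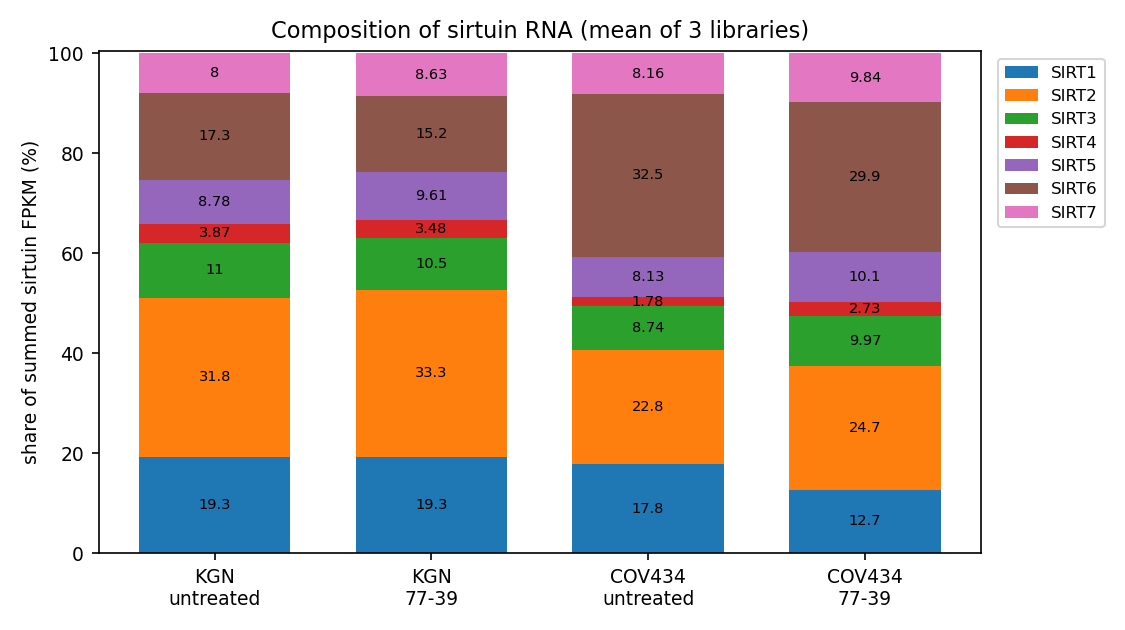
Share of the summed sirtuin FPKM (y axis, percent) taken by each of the 7 sirtuins, as the mean of 3 libraries in each group (x axis). SIRT6 took 17.3% and 15.2% in the KGN groups and 32.5% and 29.9% in the COV434 groups.

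Between the untreated lines, SIRT6, a nuclear deacylase of histones that acts in DNA repair and glycolytic gene control, differed most. Its FPKM was 7.45, 6.43 and 6.42 under the KGN label and 14.2, 13.3 and 15.01 under the COV434 label. The groups stood well apart, with the KGN value 0.512 times that of COV434 on the FPKM + 1 scale (log2 fold change -0.97, SE 0.09, limma adjusted p = 0.000105). SIRT2, a cytosolic tubulin and histone deacetylase, was higher in KGN, with 12.4, 12.7 and 12.2 FPKM against 9.86, 10.3 and 9.75 FPKM. No library of one group reached the other, and the log2 difference of SIRT2 was 0.29 (SE 0.07, limma adjusted p = 0.0105), or 0.28 with an adjusted p of 0.0534 without untreated library 2 of KGN. SIRT4, a mitochondrial enzyme with ADP-ribosyltransferase and lipoamidase activity, had 1.37, 1.68 and 1.497 FPKM in KGN against 0.889, 0.963 and 0.489 FPKM in COV434. Its groups did not overlap either (log2 difference 0.51, SE 0.13, limma adjusted p = 0.0123), although the COV434 values rest on 18, 20 and 10 reads. In all, 3 of 7 sirtuins passed an adjusted p of 0.05, where 69% of the 13098 genes tested passed, and the same 3 did not overlap between the lines, where 74.1% of genes did not. Such a share is below that of all genes, and nothing particular to the family is read from it.

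The other 4 members were not called between the untreated lines. For SIRT3 the log2 difference was 0.14 (95% interval -0.08 to 0.35, limma adjusted p = 0.206), but voom of limma on the recovered reads, which shifted the median of all genes by 0.21, gave 0.38 with an adjusted p of 0.0209. The differences of SIRT1 (-0.03, adjusted p = 0.782), SIRT5 (-0.03, adjusted p = 0.831) and SIRT7 (-0.14, adjusted p = 0.274) turned positive under that scaling, so no direction is given for them. The library size behind the deposited FPKM was 1.073 to 1.103 times the recovered reads under the KGN label. Under the COV434 label it was 0.911 to 0.978 times, so FPKM and recovered reads scale the lines differently. The 3 calls between the lines are on the FPKM scale, and voom called 4 of 7.

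**Figure D3:**
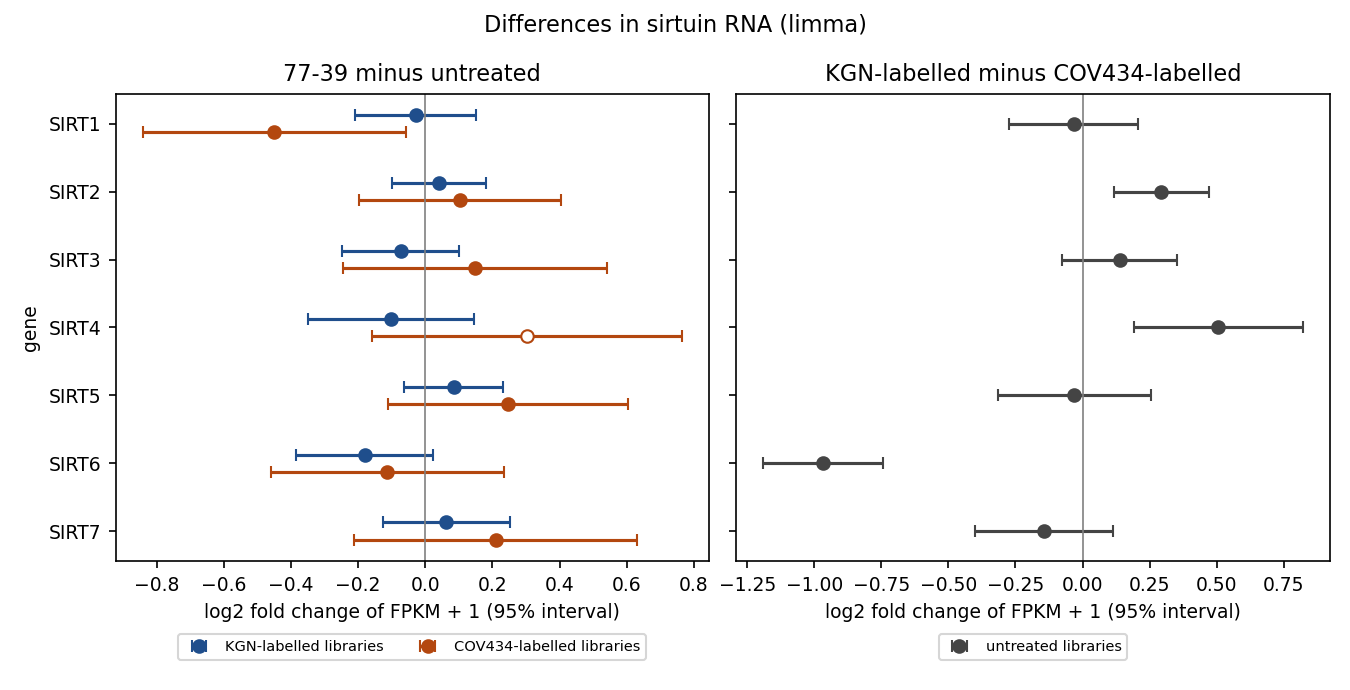
Log2 fold change of FPKM + 1 (x axis, with 95% intervals from limma) of each sirtuin (y axis) for 77-39 against untreated in each line at left, and for KGN-labelled against COV434-labelled untreated libraries at right. The open point is SIRT4 in COV434, which lay below the filter on low values, and of the intervals for 77-39 only that of SIRT1 in COV434 lies clear of 0 (-0.84 to -0.06).

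SIRT3, the target of 77-39, was measured first among the responses. In KGN its FPKM was 4.22, 4.35 and 4.30 without treatment and 3.63, 3.94 and 4.55 with 77-39. The treated libraries straddled the narrow range of the untreated ones, and the log2 fold change of SIRT3 was -0.07 (SE 0.07, limma adjusted p = 0.475), with a 95% interval on the FPKM + 1 scale from a decrease to 0.842 times to an increase to 1.07 times. In COV434, SIRT3 had 3.70, 4.30 and 3.46 FPKM without treatment and 3.36, 4.95 and 4.82 FPKM with it. Treated library 1, the one with 13.5% of reads from mitochondrially encoded genes, was the lowest of the 6 and the other 2 treated libraries were the highest. The log2 fold change of SIRT3 there was 0.15 (SE 0.17, 95% interval -0.24 to 0.54, limma adjusted p = 0.929), and 0.29 (adjusted p = 0.572) without that library. PSMD13, which shares exon bases with SIRT3, had a log2 fold change of -0.0025 in KGN (adjusted p = 0.976) and 0.20 in COV434 (adjusted p = 0.848). Fold changes on this scale understate those of FPKM itself, more so the lower the gene, and within the family most for SIRT4.

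The remaining mitochondrial members were not called in either line. SIRT5, which removes succinyl, malonyl and glutaryl groups, had 3.27, 3.61 and 3.42 FPKM in untreated and 3.86, 3.43 and 3.82 FPKM in treated KGN libraries, and these ranges overlapped. Its log2 fold change was 0.08 (95% interval -0.06 to 0.23, limma adjusted p = 0.328). In COV434, SIRT5 had 3.46, 4.27 and 2.95 FPKM before and 4.18, 4.31 and 4.64 FPKM after 77-39. The lowest treated library lay below the highest untreated one, and the log2 fold change of SIRT5 was 0.25 (95% interval -0.11 to 0.60, limma adjusted p = 0.787). SIRT4 had 1.37, 1.68 and 1.497 FPKM in untreated and 1.35, 1.11 and 1.57 FPKM in treated KGN libraries, with a log2 fold change of -0.10 (95% interval -0.35 to 0.14, limma adjusted p = 0.479). In COV434, SIRT4 went from 0.889, 0.963 and 0.489 FPKM to 0.984, 1.05 and 1.56 FPKM. Those groups did not overlap, by a narrow gap between 20 reads in the highest untreated and 18 in the lowest treated library. SIRT4 averaged under 1 FPKM there and was left out by the filter, and the fit without a filter gave 0.30 (95% interval -0.16 to 0.76, limma adjusted p = 0.823).

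Of the nuclear members, SIRT1, which deacetylates histones and transcription factors, had the smallest p of the family in COV434. Its FPKM in COV434 was 7.32, 8.93 and 7.13 without treatment and 6.38, 5.70 and 4.34 with 77-39. All 3 treated libraries lay below all 3 untreated ones, and the log2 fold change of SIRT1 was -0.45 (SE 0.17, 95% interval -0.84 to -0.06). The unadjusted limma p was 0.0299 and the adjusted p 0.522, so SIRT1 was not called. With the library number as a block these became 0.0175 and 0.230. The unadjusted limma p of SIRT1 was above 0.05 without untreated library 2 (0.102) or 3 (0.0513), or without treated library 2 (0.0587) or 3 (0.0876). Without treated library 1 the log2 fold change of SIRT1 was -0.55 (unadjusted p = 0.0174, adjusted p = 0.393). Over 14 alternatives its unadjusted limma p ran from 0.00512 to 0.102, and the lowest adjusted p was 0.0858. In KGN, SIRT1 had 7.45, 7.43 and 7.79 FPKM before and 8.38, 7.17 and 6.72 FPKM after 77-39. The treated values lay on both sides of the untreated ones (log2 fold change -0.03, 95% interval -0.21 to 0.15, limma adjusted p = 0.800).

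SIRT6 had the smallest p of the family in KGN. It went from 7.45, 6.43 and 6.42 FPKM to 6.03, 5.15 and 6.40 FPKM, and the groups did not overlap, though the highest treated library lay just under the lowest untreated one. The log2 fold change of SIRT6 was -0.18 (SE 0.09, 95% interval -0.39 to 0.02, limma adjusted p = 0.1505). In COV434, SIRT6 had 14.2, 13.3 and 15.01 FPKM before and 11.05, 14.3 and 13.9 FPKM after 77-39. Only treated library 1 lay below the untreated range, and the log2 fold change of SIRT6 was -0.11 (limma adjusted p = 0.948), or -0.0039 without that library.

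SIRT7, a nucleolar deacetylase tied to ribosomal RNA transcription, had 3.27, 3.41 and 2.73 FPKM in untreated and 3.29, 3.51 and 3.13 FPKM in treated KGN libraries. These ranges overlapped, and the log2 fold change of SIRT7 was 0.06 (95% interval -0.13 to 0.25, limma adjusted p = 0.574). In COV434, SIRT7 had 3.11, 3.70 and 3.88 FPKM before and 3.15, 4.92 and 4.93 FPKM after 77-39, with library 1 within the untreated range and the other 2 above it. Its log2 fold change there was 0.21 (95% interval -0.21 to 0.63, limma adjusted p = 0.884), and 0.38 (unadjusted p = 0.0479, adjusted p = 0.493) without library 1. MAFG, a small MAF transcription factor gene that shares exon bases with SIRT7, rose in KGN (0.40, limma adjusted p = 0.00129) and had 0.35 in COV434 (adjusted p = 0.579), and the part of these reads in the SIRT7 values was not tested. SIRT2, the cytosolic member, had 12.4, 12.7 and 12.2 FPKM before and 12.5, 12.03 and 13.9 FPKM after 77-39 in KGN, and 9.86, 10.3 and 9.75 FPKM before and 10.01, 11.04 and 11.3 FPKM after in COV434. Both pairs of ranges overlapped, with log2 fold changes of SIRT2 of 0.04 (limma adjusted p = 0.628) and 0.10 (adjusted p = 0.944). NFKBIB, which shares exon bases with SIRT2, had -0.09 in KGN (adjusted p = 0.494) and -0.30 in COV434 (adjusted p = 0.766).

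Thus no sirtuin passed an adjusted p of 0.05 under 77-39 in either line. In KGN, 0 of 7 passed with limma, where 34% of the 12671 genes tested did, 0 of 7 had an unadjusted p under 0.05, where 45.3% of genes did, and voom also called 0. Only SIRT6 did not overlap between the KGN groups, against 49.7% of all genes. In COV434, 0 of 6 tested passed, where 0.0415% of the 12060 genes tested did (0.721% with the library number as a block, again with 0 sirtuins), and voom called 0. Of these 6, 1, SIRT1, had an unadjusted p under 0.05 (8% of all genes) and did not overlap between the groups (14.4% of all genes). The test in COV434 called so few genes of any kind that the lack of calls says little about the family there.

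The upper bounds of the 95% intervals limit how large a rise of FPKM + 1 remains compatible with these libraries for each sirtuin. As a rise of FPKM itself each bound is larger, most of all for SIRT4, the lowest member. In KGN the upper bounds were 19.1% for SIRT7, 17.4% for SIRT5, 13.4% for SIRT2, 11.1% for SIRT1, 10.5% for SIRT4 and 1.71% for SIRT6. In COV434 they were 54.8% for SIRT7, 52.1% for SIRT5, 32.2% for SIRT2, 17.7% for SIRT6 and, without the filter, 69.9% for SIRT4, while the interval of SIRT1 ended at a decrease (-3.81%). The summed FPKM of the 7 genes was 39.1 ± 0.700 in untreated and 38.5 ± 1.95 in treated KGN libraries, and 43.6 ± 1.82 and 43.6 ± 3.91 in COV434. The means of each line differed by less than the SD between libraries. The sum of the mitochondrial members went from 8.16 ± 1.32 to 9.95 ± 1.28 FPKM in COV434. Libraries of the same number were taken as pairs in COV434 because their values correlated, although no label gives a pairing. The mitochondrial sum was higher with 77-39 in each such pair, at 8.05 and 8.53, 9.53 and 10.3, and 6.90 and 11.01 FPKM. No share over all genes was taken for such a sum. Single members were also compared within these pairs, a comparison chosen after the data had been seen. By FPKM, SIRT2, SIRT5 and SIRT7 were higher with 77-39 in 3 of 3 pairs. That makes 3 of the 6 sirtuins tested, where 17.9% of all genes were higher. In pair 1, SIRT2 (9.86 and 10.01 FPKM) and SIRT7 (3.11 and 3.15 FPKM) barely differed. Their reads there went from 1017 to 933 and from 317 to 290, so that direction rests on the library size behind FPKM. SIRT4, below the filter, was higher in 3 of 3 by FPKM, but on 18 and 18, 20 and 21, and 10 and 34 reads. Nothing particular to the family is read from these counts. SIRT1 was lower in 3 of 3 pairs, where 18.9% of all genes were, and SIRT3 was higher in 2 of 3 and SIRT6 in 1 of 3. A fit blocked on these pairs called 0 of the 6 tested, the limma adjusted p being 0.532 for SIRT5, 0.568 for SIRT7, 0.745 for SIRT2 and 0.711 for SIRT3.

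The responses of the lines were compared by the interaction term over the 12 libraries, which uses the same untreated libraries as the responses themselves. In this test 0 of 7 sirtuins passed an adjusted p of 0.05, where 3.6% of 13127 genes did, voom called 0, and 1 of 7 had an unadjusted p under 0.05, where 18% of genes did. That member was SIRT1, with a difference of 0.42 on the log2 scale (KGN minus COV434, 95% interval 0.02 to 0.82, limma unadjusted p = 0.0414, adjusted p = 0.252), and its unadjusted p ran from 0.013 to 0.106 over 19 alternatives. SIRT4 followed with -0.41 (adjusted p = 0.297), and SIRT3 had -0.22 (95% interval -0.61 to 0.17, adjusted p = 0.572). The responses of the sirtuins were therefore not shown to differ between the lines.

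Sirtuins depend on the supply of NAD+. Of 15 genes of NAD+ synthesis, conversion and transport, 10 could be tested in KGN, and 5 rose there (17.6% of all genes did) and 2 fell (16.4% did) at an adjusted p of 0.05. The median log2 fold change over the 10 genes was 0.21, against 0.01 over all genes. NMNAT2, which joins nicotinamide mononucleotide to an adenylyl group, went from 1.36 ± 0.0926 to 3.19 ± 0.312 FPKM (log2 fold change 0.82, limma adjusted p = 0.000758). NADK2, the mitochondrial kinase that turns NAD+ into NADP+, went from 7.18 ± 0.225 to 10.3 ± 0.369 FPKM (0.47, adjusted p = 0.000849), and NAMPT, which recycles the nicotinamide that sirtuins release, from 4.95 ± 0.104 to 6.40 ± 0.500 FPKM (0.31, adjusted p = 0.0086). The cytosolic kinase NADK fell from 17.4 ± 1.04 to 14.5 ± 0.251 FPKM (-0.25, adjusted p = 0.0126). The other fall, named after its values were seen, was NAPRT, from 1.26 ± 0.139 to 0.746 ± 0.0981 FPKM (-0.37, limma adjusted p = 0.032). In COV434, 12 genes of this list were tested and 0 passed with limma at either threshold. The log2 fold changes there were 0.25 for NMNAT2, -0.03 for NADK2, -0.35 for NAMPT and 0.16 for NADK. In 1 fit of all 12 libraries, which takes its spread from both lines, there were 2 calls in KGN in place of 7. In that limma fit NAMPT (adjusted p = 0.347) and NADK (adjusted p = 0.148) were not among them. Both kept their KGN call in 13 of 14 alternatives.

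Other enzymes that consume NAD+ gave 1 rise and 2 falls among 11 tested of 18 in KGN, a share of calls no higher than that of all genes (17.6% higher and 16.4% lower). These were PARP4 (log2 fold change 0.40, limma adjusted p = 0.00457), PARP2 (-0.34, adjusted p = 0.0046) and PARP1 (-0.14, adjusted p = 0.0297), the last pair being the main poly(ADP-ribose) polymerases of DNA damage. In 1 fit of all 12 libraries 0 of the 3 remained called. Over the 14 alternatives, PARP4 and PARP2 kept their KGN call in 13 and PARP1 in 6. In COV434, 0 of 14 passed an adjusted p of 0.05, and 4 of 14 had a higher level at an unadjusted p under 0.05, where 3.52% of all genes did. These 4, named after their values were seen, were PARP10 (0.51), PARP12 (0.50), PARP9 (0.44) and PARP6 (0.43). In 1 fit of all 12 libraries 4 members of the list were called, but that fit takes its spread from both lines. Over all genes the median SE was 0.0723 in KGN and 0.186 in COV434. PARP10 and PARP12 averaged only 0.24 and 0.417 FPKM in untreated KGN libraries. The calls of that fit are therefore no separate support for a rise in COV434.

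Of 11 zinc-dependent deacetylases, which do not use NAD+, 9 were tested in KGN. Of these, 2 fell and 0 rose, where 16.4% of all genes fell, namely HDAC6 (-0.32, limma adjusted p = 0.00274) and HDAC7 (-0.21, adjusted p = 0.0375). In COV434, 0 of 8 passed, and 1, HDAC5, was lower at an unadjusted p under 0.05 (4.49% of all genes were). Of 10 lysine acetyltransferases, 0 of 10 passed in KGN with limma (2 at an unadjusted p under 0.05) and 0 of 9 in COV434 (0 unadjusted). Of 11 genes known to regulate sirtuins, 9 were tested in KGN and 4 fell and 1 rose, where 16.4% of all genes fell and 17.6% rose. E2F1, a cell cycle transcription factor that can act on the SIRT1 promoter, fell from 19.9 ± 0.515 to 9.49 ± 0.716 FPKM (-0.99, limma adjusted p = 0.000183). CCAR2, which binds and inhibits SIRT1, also fell (-0.30, adjusted p = 0.0139), as did SENP1, a SUMO protease that acts on SIRT3 (-0.16, adjusted p = 0.0258). In 1 fit of all 12 libraries, 0 of these deacetylases and 1 of these regulators, E2F1, stayed called in KGN, while 1 deacetylase was called in COV434. That fit takes its spread from both lines, so its call in COV434 is no separate support. Over the 14 alternatives, HDAC6 and CCAR2 kept their KGN call in 13, HDAC7 in 5 and SENP1 in 7. In COV434, 0 of 11 regulators passed and 1, PPARGC1A, a coactivator upstream of SIRT3, was lower at an unadjusted p under 0.05.

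**Figure D4:**
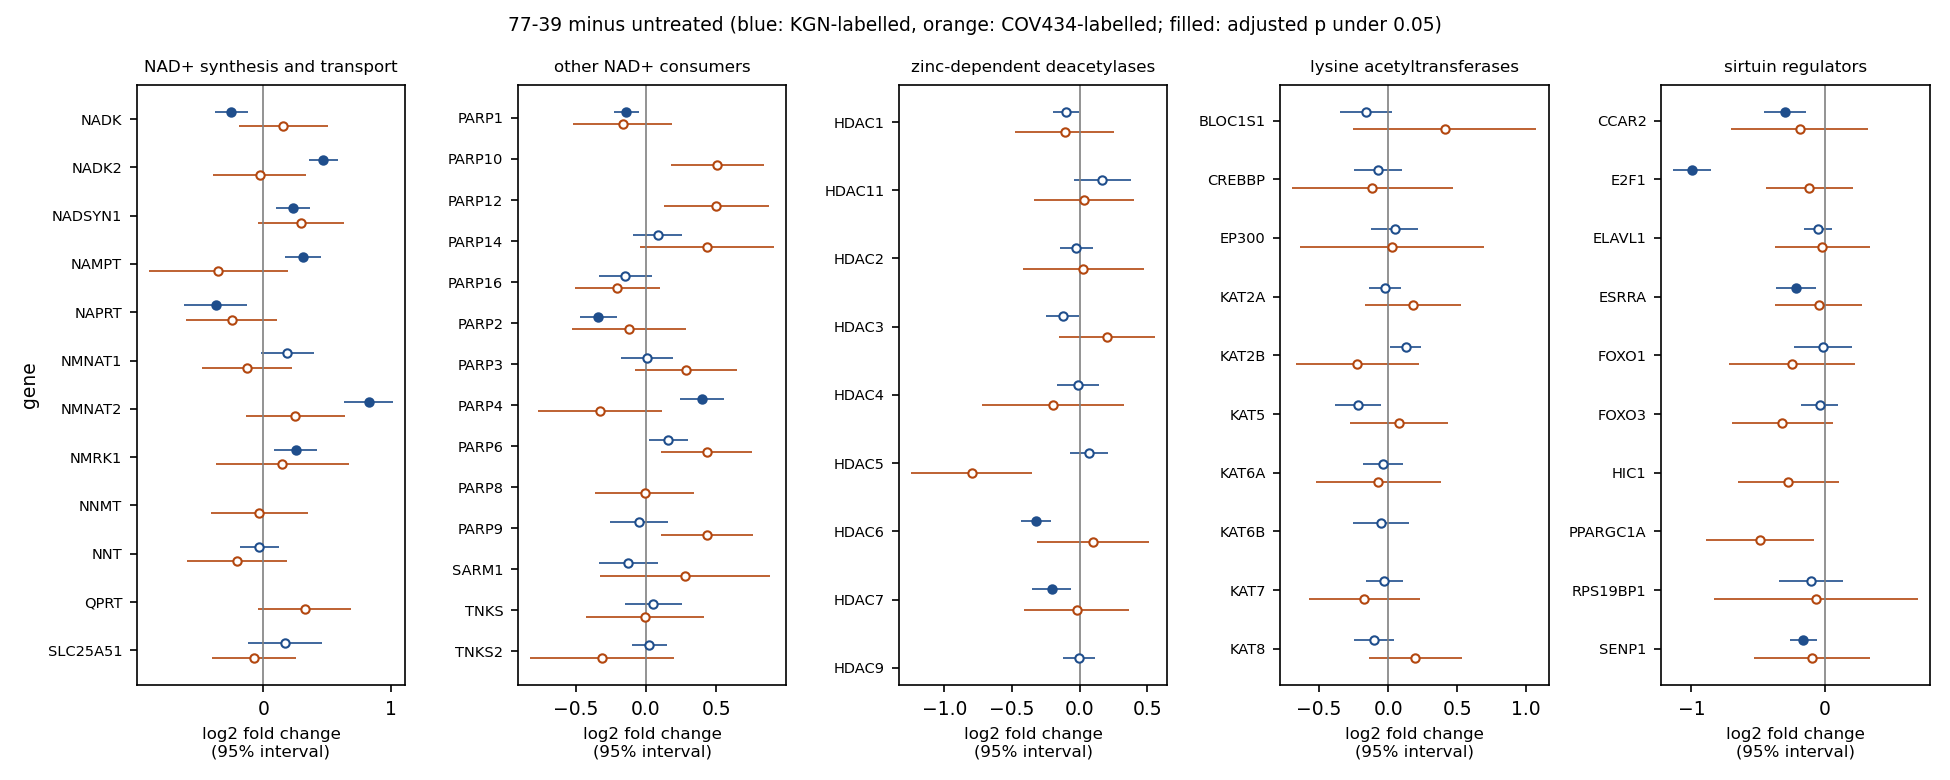
Log2 fold change of FPKM + 1 with 77-39 (x axis, 95% intervals from limma) for the tested genes of 5 lists around the sirtuins (y axis), blue for libraries labelled KGN and orange for COV434, filled where the adjusted p was under 0.05. E2F1 in KGN (-0.99) and NMNAT2 in KGN (0.82) lie farthest out, and 1 gene of the last list is not drawn.

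The genes whose levels most resembled those of SIRT3 over the 12 libraries, by Pearson's r of log2(FPKM + 1) among 13127 genes, were MYLK-AS1 (r = 0.877), SS18L2 (r = 0.864) and C7orf50 (r = 0.857). For SIRT6 they were RNF167, P3H4 and MTG2 (each r = 0.986), and for SIRT1 they were CNST (r = 0.947), DDX46 (r = 0.925) and NSF (r = 0.921). These libraries share lines and treatments, and with the line means removed the r of RNF167 with SIRT6 was 0.773 and that of CNST with SIRT1 was 0.942.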

How the data were processed

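RNA of KGN and COV434 cells, untreated or given 77-39, was sequenced in 12 libraries, whose groups were taken from the titles. The authors deposited FPKM, normalized for gene length and fragments counted. The submitters' processing notes name HISAT2 2.0.5 and mouse genome builds, although the table holds human genes, with coordinates and exon lengths that match GENCODE 29 for all 58735. The counting tool is not given in the sources used here, and whether counting used strand is not stated. The reads behind the deposited FPKM were recovered from gene length, and 100% of values came out whole within 0.05 reads (15547851 to 18280415 reads per library). Intervals on these values cover the spread between libraries, and SIRT4 is limited by its counting error.

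Genes averaging 1 FPKM or more were tested on log2(FPKM + 1) with limma 3.58.1 (lmFit, eBayes with a trend) in R 4.3.3, each line alone, between the untreated lines, and as the interaction over the 12 libraries. P-values were two-sided and adjusted by the Benjamini-Hochberg method over the genes of each fit, with 0.05 as threshold. Figures and tables used Python 3.11.15, numpy 2.4.6, pandas 2.3.3 and matplotlib 3.10.9, and the fits were tested on simulated data. Promoters are from RefSeq on GRCh38.p14 (6 of 7 sirtuins matched). The table has no other columns of samples.

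The sirtuins, gene lists, motifs and tests were chosen with earlier results of these data known. Named beside the sirtuins were up to 4 called genes per list and line with the smallest p, genes that overlap a sirtuin or start within 1000 bases of its start and average 1 FPKM or more, and the 3 genes most like SIRT3 and like the sirtuin with the smallest p in each line. 1 gene of the regulator list is not reported here. The alternatives tried were median-ratio scaling, quantile normalization, voom on the recovered reads, a 0.1 pseudocount, a filter lowered to 0.1 FPKM or removed, the library number as a block, 1 fit of all 12 libraries, and leaving out 1 library at a time. Deviations from the group means correlated between same-numbered libraries in COV434 (0.400, 0.474 and 0.166), so numbers were taken as pairs there, and not in KGN (-0.0164, -0.018 and -0.019). The value for number 3 in COV434 was close to that of untreated library 3 with treated library 2 (0.154), and no label gives the pairing.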

Additional observations from a re-analysis of the deposited data

Results flagged for a closer look

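Of 55 tested genes in the lists around the sirtuins, 3 (5.45%) passed an adjusted p of 0.05 for the interaction of line and 77-39 in limma, where 3.6% of all genes did, so nothing particular to the lists is read from them. The KGN response less the COV434 response, on the log2 scale, was -0.88 for E2F1 (adjusted p = 0.00484), -0.52 for PARP10 (adjusted p = 0.0421) and 0.87 for HDAC5 (adjusted p = 0.0443). PARP10 and HDAC5 were named after their values were seen. E2F1 kept its call in 19 of 19 alternatives, and PARP10 lost it in 15 and HDAC5 in 13. PARP10 averaged 0.24 FPKM in untreated and 0.228 FPKM in treated KGN libraries, below the filter of that line, against 19.5 and 28.2 FPKM in COV434. At so low a level the KGN response on the log2(FPKM + 1) scale is held near 0, so its interaction value mostly restates the COV434 response (0.51) and shows no difference between the responses. HDAC5 went from 9.72 ± 2.27 to 5.13 ± 0.994 FPKM in COV434 and from 4.43 ± 0.340 to 4.69 ± 0.133 FPKM in KGN.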

How the results depend on the processing

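The number of sirtuins called with 77-39 was 0 under each of 14 alternatives in KGN, 14 in COV434 and 19 for the interaction, while the number of all genes called ranged from 1237 to 5010 (4307 as reported) in KGN, from 1 to 488 (5 as reported) in COV434 and from 126 to 975 (472 as reported) for the interaction. Between the untreated lines 2 to 4 sirtuins were called. The library number as a block changed no call of a sirtuin, with 0 called in COV434, where the numbers were taken as pairs, and 0 in KGN and for the interaction. Without untreated library 2 of COV434 the line difference of SIRT3 was called (0.21, adjusted p = 0.0494).

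Values that changed sign were those of uncalled sirtuins. Between the lines SIRT1 became 0.027 with median-ratio scaling, 0.10 with quantile normalization and 0.17 with voom, SIRT5 became 0.022 with median-ratio scaling and 0.17 with voom, and SIRT7 became 0.022 with voom. With each library left out in turn, the lowest and highest log2 fold changes were -0.11 to 0.033 for SIRT1 in KGN, -0.015 to 0.083 for SIRT2 in KGN, -0.0098 to 0.11 for SIRT7 in KGN, -0.18 to 0.0087 for SIRT6 in the interaction, -0.087 to 0.057 for SIRT1 between the lines and -0.13 to 0.079 for SIRT5 between the lines. The cause of these changes was not tested. Calls in KGN depended on the setting for PARP1, HDAC7 and SENP1, lost in 8, 9 and 7 of 14 alternatives, and the NAD+ synthesis list held 2 to 7 calls. SIRT4, with 10 to 36 reads per library, is limited by depth.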
